A study of Saccharomyces cerevisiae with 21 samples.

Results

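The proteins of the yeast mitochondrial ribosome were followed through glucose starvation in 19 libraries of ribosome-protected fragments (RPFs). The members are the nuclear genes whose R64 symbol is MRPL, MRPS, MRP or RSM followed by digits, and 67 of the 5767 genes listed in at least 1 library met this rule. All 67 had reads. By their names and annotation 38 encode proteins of the large subunit and 28 proteins of the small subunit. MRP8, a protein of unknown function that carries the name but is not counted among the subunits, belongs to neither.

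All libraries came from strain BY4741 (MATa his3Δ1 leu2Δ0 met15Δ0 ura3Δ0). In the pretreated set, cells starved for 15 min in synthetic complete medium without glucose (2 libraries) were set against log phase cells in medium with glucose (2 libraries), all given cycloheximide (CHX), an inhibitor of elongation, for 1 min before harvest. The time course had no pretreatment and held log phase (2 libraries), 1 min (2), 5 min (2), 10 min (1), 15 min (2), 20 min (1) and 30 min (1) without glucose, plus 1 library of 15 min of starvation with 1 min of CHX. The multi-day set, in rich medium (YPD) without pretreatment, had 1 library each of log phase, 1 day (postdiauxic) and 5 days (stationary). The pretreated libraries held 1862525 to 5170260 gene reads. In the time course replicate 1 of log phase, 1, 5 and 15 min and the CHX library held 3523240 to 7896332, while the other 7 held only 71816 to 135958, in which a member had a median of 15 reads over all 7 together. The multi-day libraries held 652361 in log phase, 575896 at 1 day and 169545 at 5 days. Ribosomal RNA was depleted from all RPF libraries except replicate 2 of the pretreated 15 min samples, according to the labels.

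The mitochondrial ribosome translates a handful of hydrophobic subunits of the respiratory chain and the ATP synthase that the mitochondrial genome encodes. Its own proteins are made on cytosolic ribosomes from nuclear mRNAs and then imported. In budding yeast many mRNAs for mitochondrial proteins are bound in their 3′ untranslated region by Puf3, an RNA-binding protein of the Pumilio family that recognises a short element beginning with TGTA and that is known to promote decay of these mRNAs in glucose medium. RPF counts report ribosomes on an mRNA and so move with both mRNA level and translation. The RNA-seq libraries of the study were not analysed here, so these cannot be told apart, nor can fewer cells and less RNA per cell. Counts were scaled within each library, so a rise or fall is relative to the other genes. It does not give the absolute number of ribosomes on an mRNA.

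Of the short sequences searched, the Puf3 element was the one most members shared. TGTANATA was present on the coding strand within 250 bases after the stop codon in 65 of the 67 members (97.0%), against 903 of all 5753 nuclear genes examined (15.7%). All 38 large subunit genes carried it, and 27 of 28 small subunit genes did. On the opposite strand of the same windows it was found for 14 members (20.9%) and 845 of all genes (14.7%). The members without it were MRP8 and RSM22, a methyltransferase-like protein grouped with the small subunit. All 12 mitoribosomal proteins with other names that could be examined also had the element, while 7 of 38 nuclear genes for the respiratory chain and ATP synthase (18.4%) and 8 of 138 cytosolic ribosomal protein genes (5.8%) did. The 65 members held 81 elements, of which 36 read TGTAAATA, 26 TGTATATA, 18 TGTACATA and 1 TGTAGATA. The element nearest to the stop codon began between 8 and 139 bases after it, with a median of 51.

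The element and 8 bases on each side are shown for the members whose counts or polarity are described most closely here, from the RefSeq sequence of R64, 5′ to 3′ on the coding strand, with the element in capitals.
MRP20 (chrIV:1278502-1278525, plus strand): ctcacactTGTATATAcggagcaa
MRPL4 (chrXII:1015470-1015493, plus strand): ctctctccTGTAAATAtatatata
MRPL10 (chrXIV:103078-103101, minus strand): ttctcactTGTACATAccttaaga
MRPL23 (chrXV:612538-612561, plus strand): tcaatccaTGTATATAtttatctg
MRPS12 (chrXIV:694272-694295, minus strand): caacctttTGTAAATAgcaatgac
MRPL8 (chrX:315717-315740, minus strand): tattccctTGTAAATAtatagatg
MRP51 (chrXVI:327700-327723, plus strand): cagagttcTGTAAATAaataaaga
RSM25 (chrIX:187936-187959, minus strand): aaccaaccTGTATATAattaaaaa
MRPL15 (chrXII:760294-760317, plus strand): aatttatcTGTAAATAgtgatcga
MRPL35 (chrIV:1111713-1111736, plus strand): tagtatccTGTACATAtaaaataa
Members that rose and members that fell in the pretreated libraries both carry the element. With the element in 65 of the 67 members, this says nothing about its relation to the direction of change. A match is a string of letters and does not show binding. The windows from 250 bases before to 50 bases after the start codon were also searched. AAAATTTT, which reads the same on both strands, was present for 5 members (7.46%) and 9.23% of all genes. CCAAT on either strand was present for 28 members (41.8%) and 43.8% of all genes, and AGGGG, the letters of the stress response element, on either strand for 11 members (16.4%) and 21.7% of all genes.

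The members are short genes. Their coding lengths ran from 213 to 1887 nt with a median of 699 nt, against a median of 1209 nt over all genes, and only MRPL44 has an intron in its coding sequence. In log phase of the pretreated set their levels per coding length (TPM, mean of 2 libraries) had a median of 47.8 and ran from 4.71 to 124, against a median of 23.9 over all genes and 2350 over 138 cytosolic ribosomal protein genes. The highest were MRP8 at 124 ± 41.6 TPM (SD, n = 2 for all levels here), MRP2 at 111 ± 17.5 and MRPS12 at 110 ± 10.99 TPM, followed by MRPL39 at 109 ± 21.1, MRP10 at 106 ± 18.997 and MRPL37 at 98.6 ± 26.5 TPM. These 6 lie within each other's spread, so their order is not resolved. MRP2 and MRPS12 are small subunit proteins, the second a homologue of the bacterial protein of the decoding centre, and MRPL39 is the shortest member. The lowest were MRPL13 at 27.4 ± 6.67 TPM, RSM22 at 12.2 ± 3.71 TPM and MRP17 at 4.71 ± 3.08 TPM. MRP17, with 2 and 5 reads in the 15 min libraries and 5 and 16 in log phase, stood far below the rest of the small subunit (median 45.4 TPM). Apart from RSM22 and MRP17, the members spanned less than a factor of 5 in level, and the median was 50.7 TPM for the large subunit and 45.4 TPM for the small subunit. MRPL19 overlaps YNL184C by 113 bases on its own strand and MRPL51 overlaps YPR099C by 323 bases on the opposite strand, so the counts of these members are uncertain.

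The whole group took a small share of the reads, lower in most starved libraries. In the pretreated set the members held 0.199% and 0.246% of gene reads at 15 min, against 0.233% and 0.278% in log phase. Each starved library was below the log phase library of the same number, although the groups overlapped. In the time course the share was 0.187% and 0.171% in log phase, 0.165% and 0.155% at 1 min, 0.151% and 0.137% at 5 min, 0.184% at 10 min, 0.153% and 0.142% at 15 min, 0.185% at 20 min and 0.155% at 30 min, and it was 0.152% in the 15 min library with CHX. The 1, 5 and 15 min libraries were all below both log phase libraries. Their Poisson intervals, which cover counting error only, lay below that of the deep log phase library (0.182% to 0.191%). The shallow log phase library had 162 member reads and an interval of 0.146% to 0.200%. This contains the deep values at 1, 5 and 15 min and overlaps the shallow intervals, so separation from that library is not resolved. The single 10 and 20 min libraries, of 71816 and 73074 reads, were as high as log phase. In the multi-day set the share was 0.228% in log phase, 0.195% at 1 day and 0.135% at 5 days. Over the same libraries the share of the cytosolic ribosomal protein genes averaged 8.32% ± 2.13 at 15 min and 19.5% ± 0.210 in log phase of the pretreated set (SD, n = 2 each), while that of the members averaged 0.223% ± 0.0336 at 15 min and 0.255% ± 0.0316 in log phase. The ratio of large to small subunit reads was 1.29 and 1.33 at 15 min, against 1.27 and 1.28 in log phase of the pretreated set, and between 1.04 and 1.13 in the deep time course libraries.

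**Figure D1:**
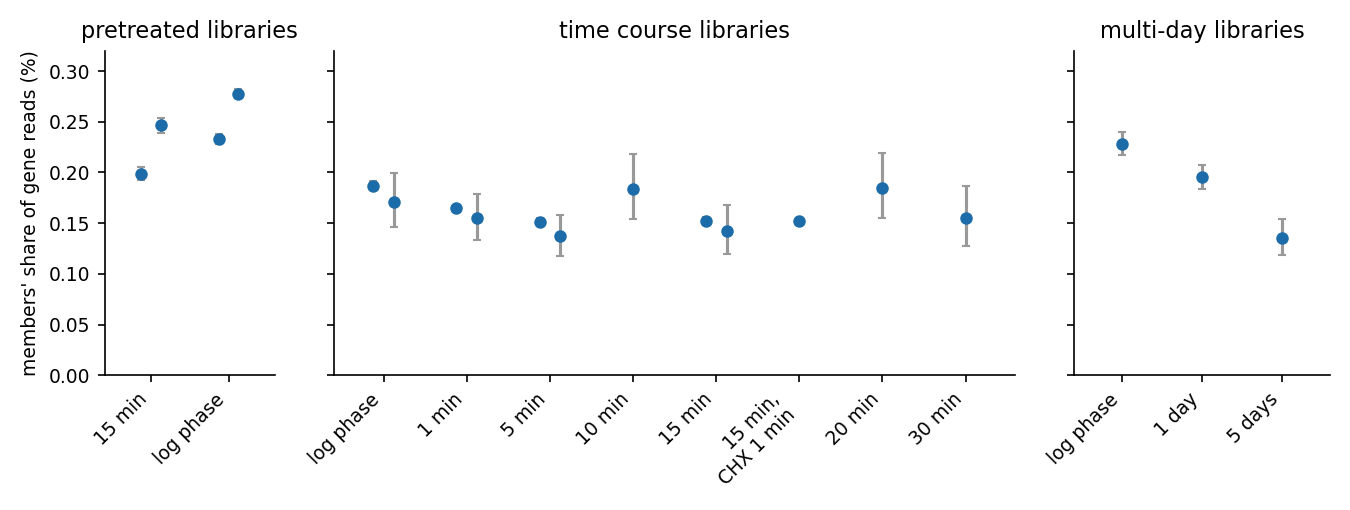
Share of all gene reads held by the 67 members (y axis, percent, from 0) in each library of the pretreated, time course and multi-day sets (x axis, condition). Points are libraries and bars are exact 95% Poisson intervals, which cover counting error only. The members hold between 0.135% and 0.278% of reads, and the 5 day library is the lowest.

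In the pretreated set most members had negative estimates after 15 min without glucose, few of them past the test, and 2 large subunit proteins rose. Of 66 members tested with edgeR's quasi-likelihood test (TMM, p-values adjusted over 5090 genes by Benjamini-Hochberg, called under 0.05), MRP20 and MRPL4 rose, MRPL10 fell and 63 did not pass. Over all genes 7.72% were called higher and 4.93% lower, so the members' counts of calls are below the background. The estimate was negative for 49 of the 66, and the median log2 fold change was -0.39, against 0.00 over all genes tested. It was -0.43 for the large subunit and -0.34 for the small subunit. With the replicate number as a block, as the methods have each starved sample taken from a culture whose remainder stayed in log phase, 4 members were called higher and 11 lower (all genes: 16.5% higher, 14.7% lower), with MRPL24 and MRPL32 joining the rise and MRPL37, MRPL11, MRPL27, RSM27, MRPL23, MRPL51, MRPS9, MRPL36, MRPL7 and MRP7 joining MRPL10 in the fall. DESeq2 called 2 higher and 2 lower (all genes: 9.0% and 6.95%).

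MRP20, a large subunit protein at the rim of the exit tunnel where nascent chains leave, had 66.0 and 76.8 CPM at 15 min, against 24.1 and 28.6 CPM in log phase. Its log2 fold change was 1.44 ± 0.23 (SE, edgeR adjusted p = 0.0172), and the groups lay far apart. MRPL4, a neighbour of MRP20 at the tunnel rim in ribosomes generally, had 67.5 and 61.7 CPM at 15 min, against 29.7 and 33.1 CPM in log phase, a log2 fold change of 1.06 ± 0.26 (SE, edgeR adjusted p = 0.0458). MRPL10, a core protein of the large subunit, had 27.0 and 34.4 CPM at 15 min, against 58.7 and 67.5 CPM in log phase, a log2 fold change of -1.04 ± 0.23 (SE, edgeR adjusted p = 0.0354). The groups did not overlap for any of these genes, which largely follows from their being called on the same libraries. With any 1 library left out, edgeR adjusted p was between 0.0169 and 0.0486 for MRP20, 0.0683 and 0.114 for MRPL4 and 0.0594 and 0.128 for MRPL10. Such a fit sets 1 library against 2 and assumes that the lone library varies like the other group, so it does not rank the 3 calls by reliability. MRP8 had 99.5 and 126 CPM at 15 min and 73.0 and 115 CPM in log phase, with overlapping groups. RSM22 had 20.0 and 21.5 CPM at 15 min and 21.1 and 31.7 CPM in log phase, a difference that did not pass the test (edgeR adjusted p = 0.455).

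**Figure D2:**
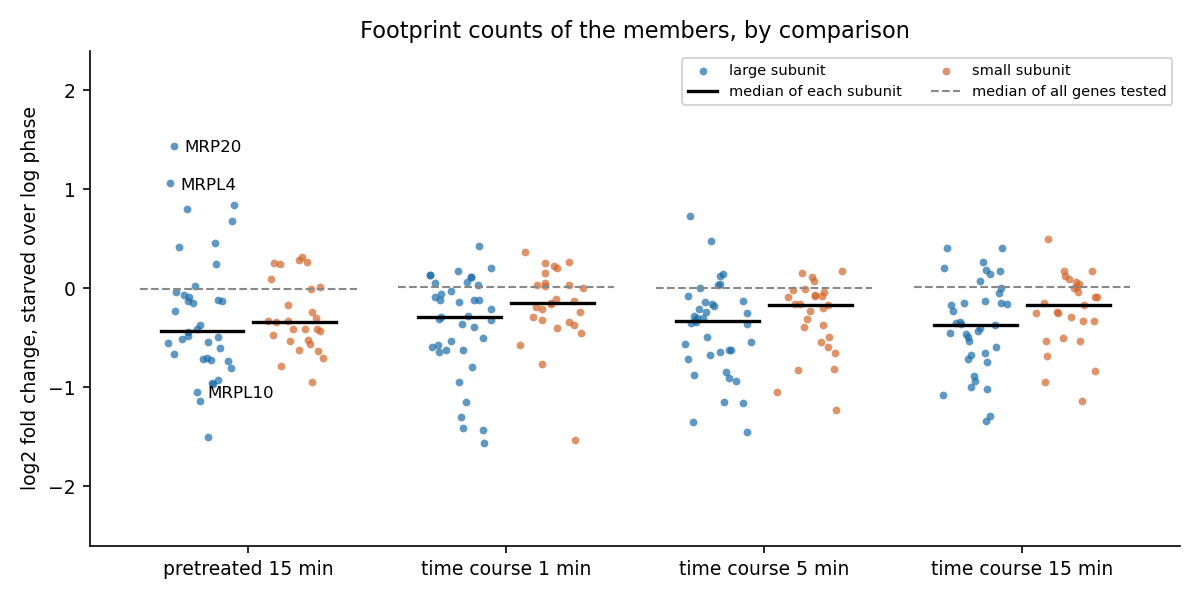
Log2 fold change of RPF counts, starved over log phase (y axis), of 65 subunit genes in 4 comparisons (x axis). Points are genes, coloured by subunit, solid lines are subunit medians, dashed lines are medians of all genes tested, and names mark called genes. Subunit medians lie between -0.43 and -0.15, below the dashed lines near 0, and calls appear only in the pretreated set.

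Among genes of related function, the 12 tested mitoribosomal proteins with other names had a median log2 fold change of -0.21, with none called (edgeR, 3 at an unadjusted p under 0.05, and 3 lower with the replicate block). The 12 mitochondrial translation factors had a median of 0.35 with none called (1 at an unadjusted p under 0.05, and 1 higher with the block). Of the 11 assembly and RNA modification genes 1 rose, RPO41, the mitochondrial RNA polymerase, with a log2 fold change of 0.94 ± 0.21 (SE, edgeR adjusted p = 0.0379), and the median was 0.12. The 17 tested translational activators of mitochondrial mRNAs had a median of 0.23 with none called (0 at an unadjusted p under 0.05, and 0 with the block). Of 38 nuclear genes for the respiratory chain and ATP synthase, 6 rose and none fell, with a median of 0.39. They were led by CYC7, an isoform of cytochrome c, at 3.35 ± 0.51, SDH1, a succinate dehydrogenase subunit, at 1.87 ± 0.31 and NDI1, the NADH dehydrogenase of the inner membrane, at 2.04 ± 0.34 (log2 fold change ± SE, edgeR adjusted p = 0.0168, 0.0191 and 0.0191). The others were QCR8, QCR10 and CYC1, and with the replicate block 14 rose and 2 fell. Of 138 cytosolic ribosomal protein genes 46 fell and none rose, with a median of -1.37, and 114 fell with the block. The median of the mitochondrial set thus stood between those 2 groups. Among the other 992 tested genes as short as the shorter members (213 nt up to 699 nt), the median log2 fold change was -0.47, against -0.45 for the 32 shorter members, and among the other 2614 genes from 699 to 1887 nt it was -0.14, against -0.26 for the 34 longer members.

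In the time course no member was called at 1, 5 or 15 min (66 tested, edgeR with 5255 genes; all genes: 0.0% at 1 and 5 min, and 0.0381% higher and 0.114% lower at 15 min). At an unadjusted p under 0.05 there were 3, 1 and 1 members, all lower, and DESeq2 called 0 at each time (all genes: none higher, and 0.419%, 1.29% and 0.666% lower at the 3 times). The median log2 fold change of the members was -0.18 at 1 min, -0.29 at 5 min and -0.25 at 15 min, with 46, 55 and 47 of 66 estimates negative, while the medians over all genes tested were 0.01, 0.00 and 0.01. These medians rest on the deep log phase library: without log phase replicate 1 they were 0.17, -0.01 and 0.04. With the replicate block 2 members were called lower and none higher at each time (all genes: 2.95% lower and 0.114% higher at 1 min, 3.98% and 0.514% at 5 min, and 3.88% and 1.67% at 15 min). MRPL23, a large subunit protein homologous to a bacterial core protein, was called at all 3 times. It is named here, with MRPS12 and RSM19, after these calls were seen. It had 10.1 and 0 CPM at 1 min, 10.95 and 0 CPM at 5 min and 11.5 and 0 CPM at 15 min, against 30.4 and 10.6 CPM in log phase, where the second value of each pair is a shallow library with 0 reads when starved and 1 read in log phase. Its log2 fold change in that fit was -1.62 ± 0.43 at 1 min, -1.48 ± 0.44 at 5 min and -1.35 ± 0.43 at 15 min (SE). MRPS12 was called at 5 and 15 min, with 32.4 and 22.1 CPM at 5 min and 29.2 and 31.1 CPM at 15 min, against 60.7 and 31.7 CPM in log phase. RSM19, a small subunit protein, was called at 1 min, with 9.44 and 8.18 CPM, against 23.0 and 52.9 CPM in log phase. For both genes the second value of each pair again comes from a shallow library with few reads. There MRPS12 was nearly level at 15 min, with 31.1 CPM against 31.7 CPM in log phase. Its lower estimate at 15 min thus comes from the deep pair.

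MRP20 and MRPL4 were not called in the time course. MRP20 had 33.9 and 20.7 CPM at 15 min and 34.3 CPM in the 15 min library with CHX, against 31.5 and 31.7 CPM in log phase. MRPL4 had 41.1 and 20.7 CPM at 15 min and 42.6 CPM with CHX, against 35.2 and 31.7 CPM in log phase. The difference between the 15 min effects of the 2 sets was tested in one edgeR fit over both, chosen after these values were seen. It was 1.31 ± 0.45 for MRP20 (log2, pretreated minus time course, SE, edgeR adjusted p = 0.316) and 0.83 ± 0.49 for MRPL4 (adjusted p = 0.641), so a difference between the sets was not shown for either. No member passed that test, against 0.614% of all 5377 genes.

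At 1 min of starvation the change in counts followed coding length. The 32 tested members shorter than 699 nt had a median log2 fold change of -0.52 at 1 min and the 34 longer ones -0.00, and only 3 of the shorter ones had a positive estimate, against 17 of the longer ones. The shorter members held 0.0569% and 0.0589% of reads at 1 min, against 0.0785% and 0.0698% in log phase, without overlap. The second value of each pair, however, comes from a shallow library, with 72 reads at 1 min and 66 in log phase. Counting error is wide at such numbers, so the separation in that pair is not resolved. The deep libraries held 3497 reads of these members at 1 min and 2765 in log phase. The longer members held 0.108% and 0.0957% at 1 min, against 0.108% and 0.101% in log phase. Across the 66 members Spearman's rho between coding length and log2 fold change was 0.66 at 1 min, 0.48 at 5 min and 0.40 at 15 min in the time course, and 0.21 in the pretreated set. Over all genes it was 0.42, 0.48, 0.32 and 0.39 in the same order. These are descriptions across genes that share the same libraries and normalization, and genes are not independent replicates. Other short genes moved likewise: the 970 other genes tested between 213 and 699 nt had a median of -0.34 at 1 min, and the 2751 others up to 1887 nt a median of 0.03. The relation with length was therefore seen in other genes too, and a difference between members and others was not tested.

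**Figure D3:**
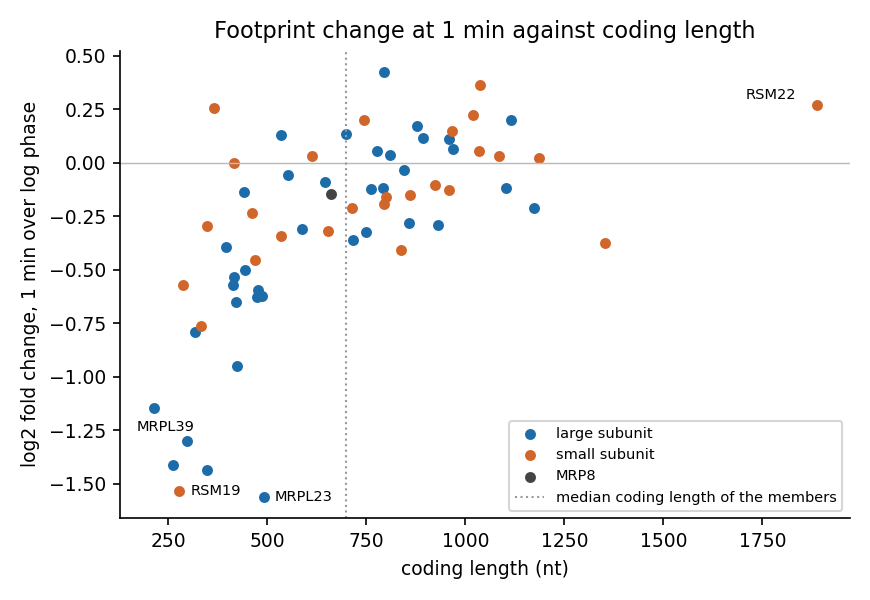
Log2 fold change of RPF counts at 1 min of starvation over log phase in the time course (y axis) against coding length in nt (x axis) for 66 members. Points are genes, coloured by class, and the dotted line is the median coding length of 699 nt. Members under about that length lie mostly below 0, down to MRPL23, and longer members scatter around 0.

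Polarity gives where on a gene the footprints lie, as a score per gene from -1 (all reads at the 5′ end) to 1 (all at the 3′ end). In log phase of the pretreated set the members leaned to the 5′ side like other genes: over the 61 members with more than 25 reads in all 4 libraries the medians were -0.17 and -0.16, and over 3979 genes -0.14 and -0.14. After 15 min without glucose the median score of the members was 0.01 in replicate 1 and -0.13 in replicate 2, while that of all genes was 0.06 and 0.06. Weighted by reads, the members' score was 0.01 and -0.16 at 15 min, against -0.16 and -0.17 in log phase, and that of all genes 0.09 and 0.09, against -0.08 and -0.08. The starved replicates thus matched over all genes and disagreed for the members. From log phase to starvation within a replicate number, 53 of 61 members gained polarity in replicate 1 (median difference 0.18) and 33 of 61 in replicate 2 (median difference 0.02). Over all genes 3651 and 3282 of 3979 gained it, with medians of 0.19 and 0.19. Both replicates gained for 31 members, only replicate 1 for 22, only replicate 2 for 2 and neither for 6.

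**Figure D4:**
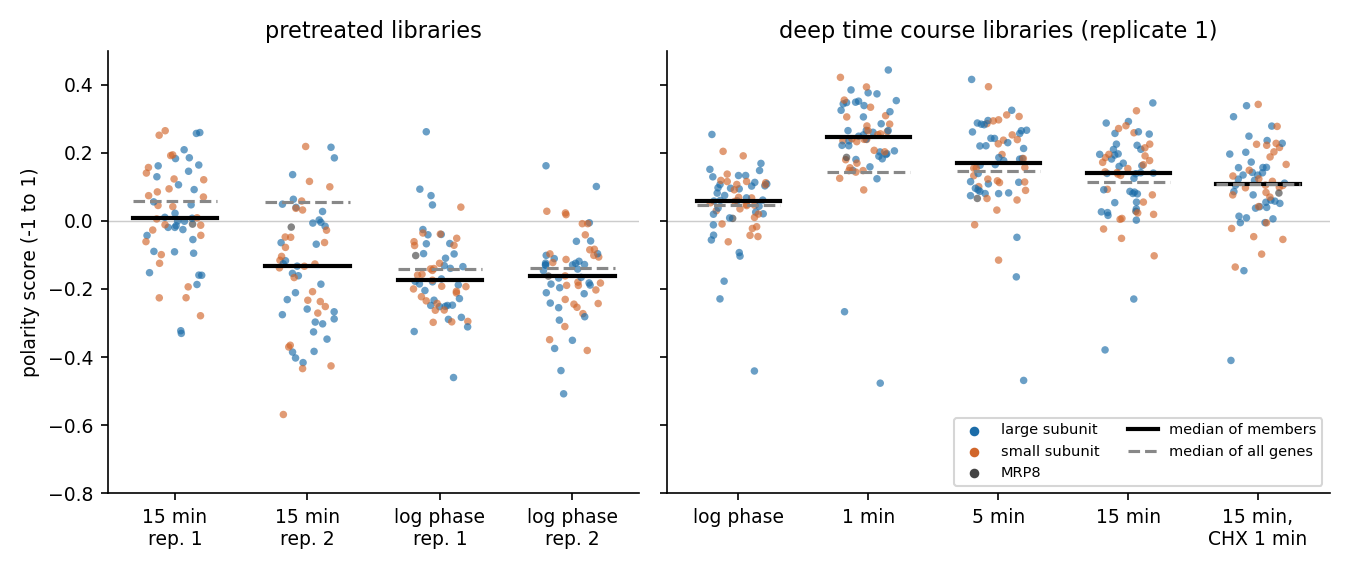
Polarity score of members (y axis, -1 to 1) in the 4 pretreated libraries and the 5 deep time course libraries (x axis). Points are members with more than 25 reads in all libraries of the panel, coloured by class, solid lines are medians of the members and dashed lines medians of all genes. In the pretreated panel the members' median is 0.01 in one starved replicate and -0.13 in the other, and in the time course panel it is highest at 1 min.

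Other short genes disagreed between the replicates as well. Among the other 681 genes of 213 to 699 nt the median gain in polarity was 0.17 in replicate 1 and 0.04 in replicate 2, against 0.19 and -0.02 for the 28 shorter members. Among the other 1990 genes of 699 to 1887 nt the gains were 0.17 and 0.18, whereas the 33 longer members had 0.18 and 0.05. The respiratory chain and ATP synthase genes (37 tested) had 0.14 and -0.09, and the cytosolic ribosomal protein genes 0.22 and 0.11. Replicate 2 is also the library without ribosomal RNA depletion, and whether this bears on the difference was not tested.

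With limma's moderated test on the scores (trend on the mean count, adjusted over 3979 genes), 5 of the 61 members gained polarity and none lost it, with 12 higher and 0 lower at an unadjusted p under 0.05. Over all genes 41.5% gained and 0.503% lost it, and the members' count of 5 in 61 lies below that background. Their median change was 0.10, against 0.18 over all genes tested. With the replicate block 11 members gained and none lost polarity (all genes: 56.1% and 1.16%). Leaving out a library changed the count a great deal: 30 members gained without 15 min replicate 2, while 10 gained and 5 lost without 15 min replicate 1, and none was called without either log phase library. In each of these fits 1 arm is a single library, assumed to vary like the other group, so without a 15 min library the calls rest on the spread of the 2 log phase libraries.

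The 5 called members are named although the rule on reads covers only MRP51 and MRPL35. MRPL8, of the large subunit, scored 0.15 and 0.19 at 15 min, against -0.29 and -0.35 in log phase, a change of 0.49 ± 0.08 (SE, limma adjusted p = 0.0117). MRP51, a small subunit protein known in yeast from its genetic link to the leaders of mitochondrial mRNAs, scored 0.04 and 0.03 at 15 min, against -0.30 and -0.27 in log phase, a change of 0.32 ± 0.06 (SE, limma adjusted p = 0.0122). MRPL35, of the large subunit, scored -0.02 and -0.16 at 15 min, against -0.31 and -0.37 in log phase, a change of 0.25 ± 0.08 (SE, limma adjusted p = 0.0360). RSM25, of the small subunit, and MRPL15, of the large subunit, changed by 0.39 ± 0.10 and 0.29 ± 0.08 (SE, limma adjusted p = 0.0195 and 0.0294). In all 5 members both starved libraries were above both log phase libraries. They were called on these same values, so the separation largely follows from the call. All 5 are at or above the median length of the members, as are 33 of the 61 tested. MRPS12 shows the disagreement between replicates, with 0.25 and -0.43 at 15 min, against -0.07 and -0.08 in log phase, from 96 reads in each starved library. MRPL44 scored 0.26 and -0.26 at 15 min, against 0.07 and 0.10 in log phase. These last members were chosen after their values were seen.

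**Figure D5:**
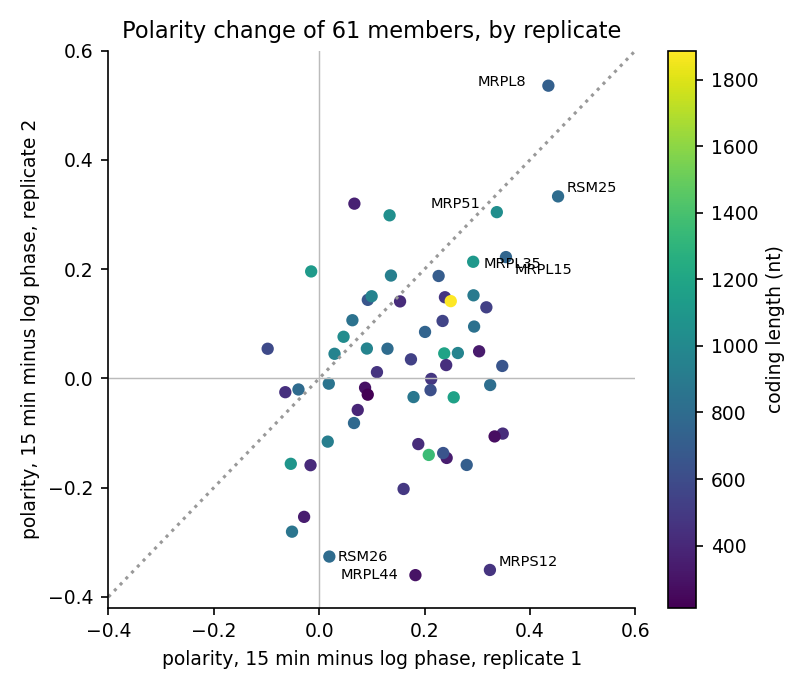
Change in polarity score, 15 min minus log phase, in replicate 1 (x axis) and replicate 2 (y axis) of the pretreated set for 61 members, coloured by coding length in nt. The dotted line marks equal changes. Most points lie right of 0, with 53 of 61 above 0 in replicate 1, and they spread on both sides of 0 in replicate 2, with 33 above 0.

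In the time course the members' polarity was highest at 1 min and lower at later times. Weighted by reads, their score was 0.05 and 0.04 in log phase, 0.23 and 0.17 at 1 min, 0.17 and 0.14 at 5 min, 0.14 at 10 min, 0.12 and 0.12 at 15 min, 0.10 at 20 min and 0.08 at 30 min, and it was 0.11 in the 15 min library with CHX. Every starved library was above both log phase libraries, and the 2 libraries at 1 min were above all later ones. The shallow 1 min library, with 189 member reads, scored 0.1704 and the deep 5 min library 0.1695, so their order is not resolved. Over all genes the score was 0.10 and 0.08 in log phase, 0.17 and 0.14 at 1 min, 0.16 and 0.13 at 5 min, 0.12 at 10 min, 0.13 and 0.12 at 15 min, 0.10 at 20 min and 0.13 at 30 min. In the deep libraries the members thus began below all genes and stood above them at 1 min. The shallow replicate had the same order, from 162 member reads in log phase and 189 at 1 min. All shallow scores here rest on 113 to 189 member reads, and no interval was computed for them. Small gaps between a shallow library and any other are therefore not resolved. In the shallow time course libraries none of the 67 members exceeded 10 reads, against the minimum of 25, so no member could be tested for polarity in the time course, and the values by gene come from the deep libraries, 1 per condition.

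In those libraries 61 of 64 members with more than 25 reads in each had a higher score at 1 min than in log phase, 54 did at 5 min, 44 at 15 min and 45 at 15 min with CHX. The median difference from log phase was 0.19 at 1 min, 0.10 at 5 min, 0.07 at 15 min and 0.07 with CHX, against 0.09, 0.09, 0.06 and 0.05 over 4710 genes. All 27 small subunit members and 33 of 36 large subunit members were higher at 1 min. The shorter and the longer members took different courses: the 30 shorter ones had a median gain of 0.22 at 1 min and 0.08 at 5 min, and only 2 of them scored higher at 5 min than at 1 min, while the 34 longer ones had a median gain of 0.16 at 1 min and 0.16 at 5 min, with 16 higher at 5 min than at 1 min. Other genes of the same lengths had 0.14 at 1 min and 0.04 at 5 min (794 shorter) and 0.10 and 0.11 (2444 longer).

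MRPL22, of the large subunit, had the largest gain, with a score of -0.10 in log phase, 0.35 at 1 min, 0.29 at 5 min and 0.21 at 15 min. MRPS12 scored 0.05 in log phase, 0.39 at 1 min, 0.30 at 5 min and 0.32 at 15 min, from 214 reads in log phase and 309 at 1 min. RSM27, of the small subunit, scored 0.04 in log phase, 0.42 at 1 min and 0.03 at 5 min. At the other end, MRPL13 kept a strongly 5′ score throughout, with -0.44 in log phase, -0.48 at 1 min, -0.47 at 5 min and -0.38 at 15 min, and in the pretreated set it scored -0.33 and -0.39 at 15 min, against -0.46 and -0.44 in log phase. MRPL20 was negative in all deep time course libraries, with -0.23 in log phase and -0.27 at 1 min, but positive in all pretreated libraries, with 0.16 and 0.22 at 15 min and 0.26 and 0.16 in log phase. MRP8 scored 0.01 in log phase and 0.19 at 1 min, and RSM22, the longest member, 0.07 and 0.15 at the same points. Apart from MRP8 and RSM22, these genes were chosen after their values were seen.

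Over days of growth in YPD, where respiration takes over from fermentation, most members had lower CPM at 1 day than in log phase, while all respiratory chain genes measured had higher CPM. With 1 library per condition there is no replicate check and no test. Ratios are log2 of CPM + 1 over CPM + 1, for genes with at least 20 reads over the 3 libraries, which 62 members had. At 1 day the members' median ratio was -0.39, with 2 members above 1 and 13 below -1, against 0.21 over 4576 genes, of which 31.6% were above 1 and 22.8% below -1. With TMM scaling 2 members were above 1 and 20 below -1, against 28.5% and 25.5% of all genes, so whether the members' share below -1 is under or over the background depends on the scaling. The 36 respiratory chain and ATP synthase genes had a median of 2.51, with 35 above 1. The 138 cytosolic ribosomal protein genes had -3.78, with 134 below -1, and the 8 mitochondrial translation factors 0.81. The 10 mitoribosomal proteins with other names had a positive median, 0.24, with 6 above 0, 2 above 1 and 3 below -1. Their median at 5 days was -1.03. All 13 such genes together held 0.0484% of reads in log phase and 0.0490% at 1 day, with overlapping Poisson intervals. A difference between this small group and the members was not tested. At 5 days the members' median was -0.94, with 2 above 1 and 28 below -1, against -0.61 over all genes, of which 23.3% were above 1 and 42.6% below -1. With TMM scaling 2 members were above 1 and 21 below -1, against 27.95% and 35.8% of all genes, and the comparison with the background again turned with the scaling. At 1 day the shorter members had a median of -0.91 and the longer ones -0.11. At 5 days the medians were -0.82 and -1.05.

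The only members above 1 at 1 day were MRP20 and MRPL4, the same genes that were called higher in the pretreated set. MRP20 had 48.6 CPM at 1 day (28 reads, exact 95% Poisson interval 32.3 to 70.3 CPM) and 76.7 CPM at 5 days (13 reads, 40.8 to 131), against 15.3 CPM in log phase (10 reads, 7.35 to 28.2), for ratios of 1.603 and 2.25. MRPL4 had 99.0 CPM at 1 day (57 reads, 74.96 to 128), against 29.1 CPM in log phase (19 reads, 17.5 to 45.5), a ratio of 1.73, and 17.7 CPM at 5 days (3 reads, 3.65 to 51.7), a ratio of -0.69 within counting error. The intervals of both genes at 1 day lay above those in log phase. MRP8, the only member with at least 100 reads over the 3 libraries, had 99.0 CPM at 1 day and 100.3 CPM at 5 days, against 90.4 CPM in log phase, with overlapping intervals. The lowest ratio at 1 day was that of MRP2, with 3.47 CPM (2 reads, 0.42 to 12.5), against 39.9 CPM in log phase (26 reads, 26.0 to 58.4). The members other than MRP8 named from this set were chosen after their values were seen.

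Weighted by reads, the members' polarity was -0.02 in YPD log phase, 0.22 at 1 day and -0.04 at 5 days, against 0.05, 0.17 and -0.02 over all genes. All 9 members with more than 25 reads in both the log phase and the 1 day library scored higher at 1 day. Their median difference was 0.22, and 1841 of 2136 genes scored higher with a median of 0.15. Of the 9, 8 were 699 nt or longer, with a median of 0.24. Among other genes of 699 to 1887 nt, 930 of 1007 scored higher, with a median of 0.19. These are single libraries, so the difference from the other genes has no replicate check.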

How the data were processed

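Ribosome profiling libraries of BY4741 were analysed from the tables that the authors deposited, 1 per library, with raw RPF counts per gene, gene length (another quantity in the deposited tables, not used for TPM) and a polarity score per gene, which the authors calculated with custom Python code. For unpretreated libraries the authors trimmed adapters with Cutadapt, discarded reads from noncoding RNA, aligned the rest to R64-1-1 with Bowtie, collapsed PCR duplicates by their molecular identifiers and counted reads with htseq-count. Pretreated footprints were selected by size and polyadenylated. No tool versions are given there. Genes without reads are not listed and were set to 0.

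Of 5767 listed genes 5762 matched the RefSeq annotation of R64. Counts were tested with edgeR 4.0.16 (TMM, filterByExpr, quasi-likelihood) and DESeq2 1.42.0, and polarity with limma 3.58.1 where every library of the fit had over 25 reads for the gene (R 4.3.3). The threshold was an adjusted p of 0.05. The time course fit held log phase, 1, 5 and 15 min. CPM were taken over all gene reads, and TPM over coding lengths. The fits were tested on simulated data. Deviations of same-numbered libraries correlated at 0.45 in the pretreated set and 0.88 to 0.92 in the time course, where replicate 1 is also the deep library, and the methods take starved and log phase cells from one culture. In the labels the 15 min time course replicates sit in the sequencing pools opposite to their numbers. Nothing says that replicates are separate cultures, so p-values may measure technical spread. Intervals cover counting error only. Members were named by a rule: the 6 highest and 3 lowest levels, called members (counts: 20 CPM or more in the higher group, up to 8 per direction; polarity: 50 reads or more in every library, up to 6 per direction), the 5 multi-day ratios at each end with at least 100 reads, MRP8 and RSM22, and up to 4 genes per direction from other lists. Members and lists were chosen with earlier results of these data known. The other lists were mitoribosomal proteins with other names, translation factors, assembly and RNA modification genes, translational activators, respiratory chain and ATP synthase genes, cytosolic ribosomal proteins and genes deleted in BY4741, of which LEU2, URA3 and MET17 had at most 6 reads in any pretreated library. In the deep time course libraries LEU2 had 17 to 55 reads, URA3 6 to 16 and MET17 27 to 68. HIS3, of which the his3Δ1 allele removes only a part, had 59 to 546 reads in the pretreated libraries and 192 to 371 in the deep time course libraries. RNA-seq and glucose readdition samples were not analysed here.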

Additional observations from a re-analysis of the deposited data

How the results depend on the processing

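Of the alternatives tried, the median change of the members in the pretreated set kept its sign under all of them. With 1 library left out, where a lone library is assumed to vary like the other groups, it ran from -0.37 to -0.28 for counts and from 0.016 to 0.19 for polarity. Called members in the pretreated counts (2 higher, 1 lower) became 1 higher and 0 lower with library totals, 2 lower with DESeq2, 4 higher and 11 lower with the replicate block, and 1 higher and 0 to 1 lower with 1 library left out. Called gains in polarity (5) became 0 of 3 tested at more than 100 reads, 9 without the trend, 11 with the replicate block and 0 to 30 with 1 library left out, when 0 to 5 lost it. In the time course the replicate block added 2 lower calls at each time. At 1 min the members' median of -0.18 was -0.21 with RLE, -0.23 with DESeq2 or only 2 groups in the fit, and -0.20 with the replicate block. At 15 min it was -0.32 with library totals. With 1 library left out it ran from -0.31 to 0.17 at 1 min, -0.53 to -0.0095 at 5 min and -0.67 to 0.044 at 15 min, the upper values without log phase replicate 1. A block for the sequencing pool in the time course also left 0 members called. RSM22 reached an adjusted p of 0.0498 for polarity without the trend and 0.0474 without 15 min replicate 2 (limma). TMM scaling of the multi-day set moved all genes by -0.16 at 1 day and 0.37 at 5 days and the members' medians to -0.54 and -0.57. MRP20 then had ratios of 1.44 and 2.63 and MRPL4 1.57 at 1 day. No member had 200 reads over the 3 multi-day libraries, so that alternative gave no value, and leave-one-out was not run for time course polarity, where no member could be tested. No cause was tested. Depth limits the 7 shallow time course libraries most.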
